A study of Mus musculus with 12 samples.

Results

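Serpin genes encode one of the largest families of protease inhibitors, and 63 of the 24421 gene symbols counted in these mouse livers and liver tumors belonged to it. The members were every symbol that begins with Serpin, a clade letter from a to i and a digit. No measured value enters this rule, although earlier results of these data were known when it was set. Poly(A) RNA of 12 libraries was compared, 6 of non-tumoral liver and 6 of liver tumors, from 6 mice over 18 months of age on a standard diet. In p21+/Tert mice the telomerase reverse transcriptase Tert was driven by the promoter of p21 (Cdkn1a), and in p21+/TertCi mice the same promoter drove a catalytically inactive Tert. The transgene was therefore tied to cells in which that promoter was active, and mice of both genotypes were heterozygous for the modified p21 allele and had an intact endogenous Tert gene. The livers carry the letter L and the animal number of their label. The p21+/Tert group held 4 livers (L961, L663, L941 and L992) and 4 tumors, of which T-HCC662 and T-HCC663 are given first and then T-HCC941 and T-HCA992. The p21+/TertCi group held livers L981 and L984 with the tumors TCi-HCC981 and TCi-HCA984. A liver and a tumor with the same number came from the same mouse, and L961 was paired with T-HCC662 by elimination. No animal without a transgene was analysed here. The study reports Ctnnb1 mutations in T-HCC662 and T-HCC663, an Egfr mutation in T-HCC941, an Hras mutation in TCi-HCC981 and neither kind in T-HCA992 and TCi-HCA984, and these mutations set the tumor classes used below. Both Ctnnb1-mutated tumors were p21+/Tert, so that class rests on 2 mice of 1 genotype, and T-HCC663 is listed by the study as an adenoma in spite of its name.

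The libraries held 14571716 to 26170661 counts. Levels are CPM, counts per 1000000 counts of the library total after scaling by the trimmed mean of M-values (TMM). Tert was counted in all 12 libraries at 4.69 to 26.1 CPM, and Cdkn1a at 1.63 to 81.0 CPM. The Y-linked Ddx3y lay between 36.3 and 88.55 CPM in all 12, so the mice did not differ in sex. All 9 measured hepatocyte markers were detected in every library. In bulk tissue, fewer cells of a type and less RNA per cell cannot be told apart, and this holds for each level below. A gene is called when its adjusted p in edgeR's quasi-likelihood test over all genes tested is below 0.05.

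An inhibitory serpin presents an exposed reactive centre loop as bait. When a protease cuts the loop, the serpin changes shape and traps the enzyme in a covalent complex, so each molecule acts once. Hepatocytes secrete most plasma serpins, among them α1-antitrypsin (Serpina1), antithrombin (Serpinc1), α2-antiplasmin (Serpinf2) and C1 inhibitor (Serping1). Clade b serpins lack a classical signal peptide and act mainly inside cells. Some members carry hormones or fold collagen instead of inhibiting proteases. Mice differ from humans in holding several α1-antitrypsin genes and a large array of Serpina3 genes, which arose by duplication.

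Of the 25 clade a genes, 24 lay in 1 cluster of 799544 bases on chromosome 12 (chr12:103614786-104414329, mm10), and Serpina7 lay on chromosome X. The 5 expressed Serpina1 copies had coding sequences of 1242 bases that were 96.3% to 98.5% identical between pairs. Of these 1242 positions, 86 differed among the copies, and 18 of the 86 fell within the 60 bases that differed most, from coding position 1102 to 1161. This stretch, within 1 exon, encodes the reactive centre loop, the part that decides which protease is caught. It is shown because the copies are told apart in the counts only by such positions, which are in capitals. All copies are on the minus strand of chromosome 12 and the sequences are read from the GENCODE M21 transcripts on mm10. The stretches lie at chr12:103853756-103853815 (Serpina1a), chr12:103728323-103728382 (Serpina1b), chr12:103895093-103895152 (Serpina1c), chr12:103763761-103763820 (Serpina1d) and chr12:103947099-103947158 (Serpina1e).
Serpina1a: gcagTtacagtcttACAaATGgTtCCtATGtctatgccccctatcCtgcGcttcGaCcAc
Serpina1b: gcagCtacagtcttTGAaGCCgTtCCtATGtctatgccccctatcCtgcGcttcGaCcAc
Serpina1c: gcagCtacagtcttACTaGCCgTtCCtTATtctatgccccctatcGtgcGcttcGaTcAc
Serpina1d: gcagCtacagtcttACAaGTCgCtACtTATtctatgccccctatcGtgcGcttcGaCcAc
Serpina1e: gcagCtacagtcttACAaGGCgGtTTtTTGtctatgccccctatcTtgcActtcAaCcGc

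The share of transcript windows of 150 bases that a copy had in common with another annotated gene was 59.7% for Serpina1c, 35.1% for Serpina1a, 23.3% for Serpina1d, 11.9% for Serpina1b and 7.36% for Serpina1e. A read in a shared window cannot be placed by its own sequence. The reads were paired, and whether the mates placed such reads is not given in the sources used here. The levels of single copies, of Serpina1c most of all, are therefore uncertain, and the sum over the copies is given beside them. Serpina3k and Serpina3m, whose coding sequences were 90.9% identical, shared only 0.262% and 0.331% of their windows, although their annotated spans overlap. Other members overlapped unrelated genes: 31.6% of the Serpinc1 windows were shared with Zbtb37, 29.9% of those of Serpina11 with Gm28577, and 16% of those of Serpinb6a with Nqo2, Ripk1 or 1110046J04Rik.

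The promoter windows of Serpina1b and Serpina1e and of their neighbor Serpina12 are shown because these genes moved apart in the tumors. RefSeq gives them on GRCm38.p6, all on the minus strand, as 250 bases before to 50 bases after the annotated start. They lie at chr12:103738140-103738439 (Serpina1b), chr12:103956848-103957147 (Serpina1e) and chr12:104044394-104044693 (Serpina12). Capitals mark GTTAAT, the half-site read by HNF1 factors, and CTTTGA, the core read by TCF/LEF factors, each searched on both strands.
Serpina1b: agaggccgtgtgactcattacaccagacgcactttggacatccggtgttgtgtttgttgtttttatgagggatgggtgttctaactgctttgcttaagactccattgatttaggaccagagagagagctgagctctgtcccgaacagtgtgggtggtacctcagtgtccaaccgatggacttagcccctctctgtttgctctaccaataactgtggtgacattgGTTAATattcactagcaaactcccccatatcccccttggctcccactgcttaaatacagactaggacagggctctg
Serpina1e: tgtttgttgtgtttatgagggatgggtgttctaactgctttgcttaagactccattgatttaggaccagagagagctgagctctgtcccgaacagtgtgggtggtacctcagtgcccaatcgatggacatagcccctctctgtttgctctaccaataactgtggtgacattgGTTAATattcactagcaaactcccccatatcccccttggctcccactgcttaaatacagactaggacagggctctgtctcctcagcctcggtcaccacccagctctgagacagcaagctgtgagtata
Serpina12: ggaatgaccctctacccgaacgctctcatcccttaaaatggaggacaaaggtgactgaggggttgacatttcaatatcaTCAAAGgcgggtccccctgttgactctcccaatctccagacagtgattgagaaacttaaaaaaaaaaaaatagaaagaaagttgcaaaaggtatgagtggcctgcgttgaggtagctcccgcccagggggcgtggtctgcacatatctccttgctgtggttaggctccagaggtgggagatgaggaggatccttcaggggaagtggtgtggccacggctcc

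GTTAAT stood once in the window of each of the 5 Serpina1 copies and in 7.10% of 32817 promoter windows of all genes. CTTTGA stood once in the Serpina12 window, on the opposite strand, in none of the Serpina1 windows, and in 16% of all windows. Where the windows overlap after alignment, over 250 bases, Serpina1b and Serpina1e were 97.6% identical. The pairs of copies ranged from 91.4% to 97.6%. A match describes these letters only.

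Serpin transcripts made up 2.85% to 5.06% of all counts in the 6 livers, 0.886% and 1.04% in the 2 Ctnnb1-mutated tumors, and 2.80% to 4.77% in the 4 other tumors. The Ctnnb1-mutated tumors lay below all other libraries. Clade a gave 84.5% of the serpin counts over all libraries, Serpinc1 5.63%, clade f 4.69%, Serping1 3.22% and Serpind1 1.52%. Clade b, with 27 genes, gave 0.285%. Serpinh1, clade e and clade i gave less than any of these.

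Of the 63 members, 31 passed the expression filter of the comparison of 6 tumors with 6 livers: 18 of 25 in clade a, 5 of 27 in clade b, 2 of 3 in clade e, 2 of 2 in clade f, 0 of 2 in clade i, and Serpinc1, Serpind1, Serping1 and Serpinh1. The comparisons of genotypes and tumor classes tested 37. No count was found in any library for 10 members, namely Serpinb11, Serpinb13, Serpinb3a to Serpinb3d, Serpinb6c to Serpinb6e and Serpini2. A count of 0 allows up to 3 counts, or 0.115 to 0.206 CPM of the library total. Another 6 members stayed under 0.3 CPM in every library, so that 16 were near or at 0.

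Per kb of coding sequence, the median liver level was highest for Serpina3k at 9419 CPM per kb, followed by Serpina1b at 4384, Serpina1e at 3825, Serpina1c at 3662, Serpina1d at 2549 and Serpina1a at 2519. Serpinc1 followed at 1525, Serping1 at 848.8 and Serpinf2 at 750.7 CPM per kb. This order rests on coding length alone, while transcripts differ more in length. They measure 4970 bases for Serpinc1, 1768 for Serping1, 2192 for Serpinf2, 1762 for Serpina1b and 1361 for Serpina1c. The order of Serpinc1, Serping1 and Serpinf2, and that among the Serpina1 copies in the livers, can therefore change with the length used. Neighbors in the order from Serpina1b to Serpina1a had overlapping ranges of CPM over the 6 livers, and Serpina1e spanned the widest range of them. Livers L992, L981 and L984 held 787.9 to 962.6 CPM of Serpina1e and L961, L663 and L941 held 8538 to 14130 CPM. No liver was near its median. In the other tumors Serpina1b was highest at 7901 CPM per kb, and in the Ctnnb1-mutated tumors too, at 1502.

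**Figure D1:**
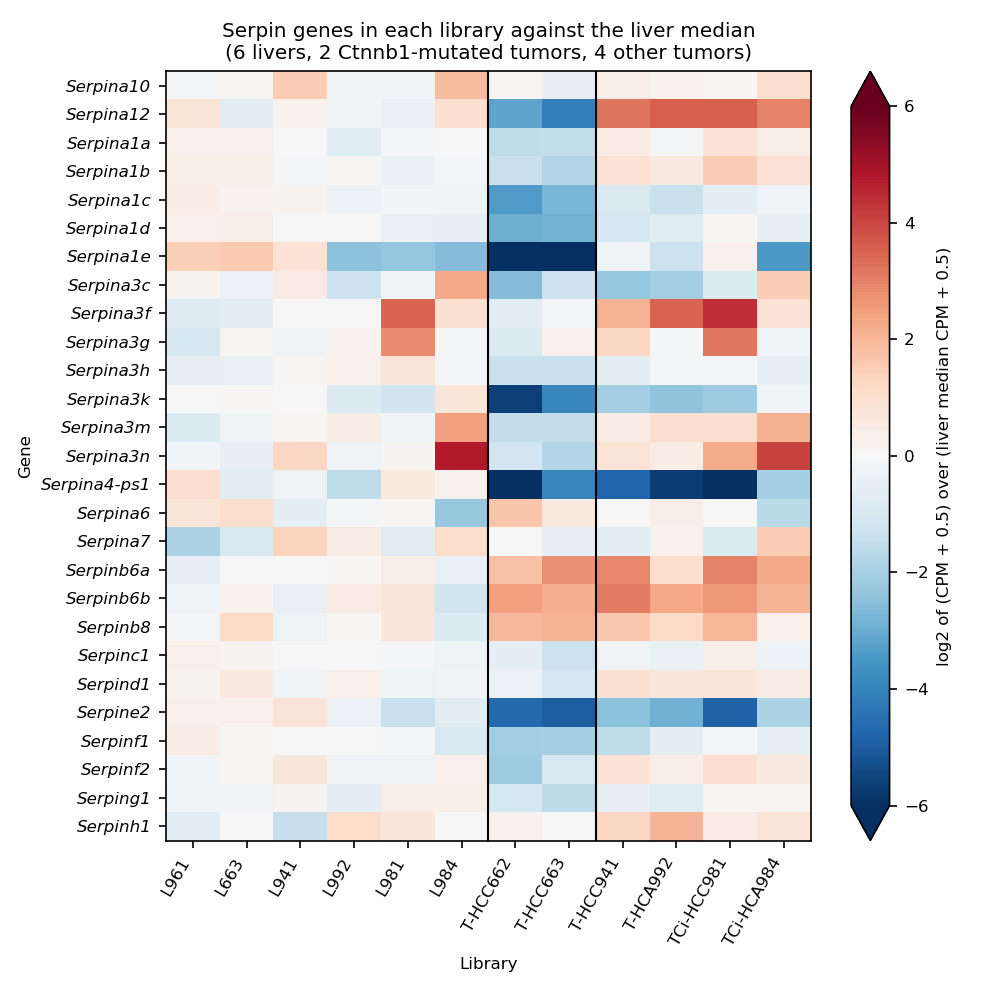
Colors give the log2 ratio of each gene's level (CPM + 0.5) to its median over the 6 livers for 27 members (rows) in the 12 libraries (columns, split by black lines into livers, Ctnnb1-mutated tumors and other tumors). Serpina12 is blue in both Ctnnb1-mutated tumors and red in the 4 others, whereas Serpinb6a and Serpinb6b are red and Serpine2 and Serpina4-ps1 blue in all 6 tumors.

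The first question was which serpins differed between tumors and non-tumoral liver. Serpinb6a, an intracellular inhibitor of cathepsin G and related proteases, ranged from 9.89 to 18.8 CPM in the livers, with a median of 13.96. It was at 48.4 and 97.0 CPM in T-HCC662 and T-HCC663 and at 107.5 CPM in T-HCC941, 29.3 CPM in T-HCA992, 113.6 CPM in the tumor TCi-HCC981, and 69.7 CPM in TCi-HCA984, an order kept below. All 6 tumors lay above all 6 livers, and the log2 fold change was 2.51 ± 0.32 (SE, adjusted p = 0.00088). Its relative Serpinb6b, 81.2% identical in coding sequence, was at 0.630 to 3.74 CPM in the livers. The tumor levels of Serpinb6b were 13.8 and 11.2 CPM in the Ctnnb1-mutated tumors and 21, 12.4, 15.4 and 10.1 CPM in the others. These groups did not overlap either, and the log2 fold change was 2.68 ± 0.38 (adjusted p = 0.00158). The other Serpinb6 genes stayed at 0 in all libraries, so 2 of the 5 were expressed and both rose.

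Serpinb8, an inhibitor of furin, rose by a smaller amount (log2 fold change 1.47 ± 0.41, adjusted p = 0.0374). It ranged from 1.55 to 7.80 CPM in the livers and was at 13.7, 15.1, 10.6, 7.52, 14.1 and 3.98 CPM in the 6 tumors in the order above, so the groups overlapped. The call ended when L961, L941, L992 or L984 or tumor T-HCC662, T-HCC663, T-HCC941 or TCi-HCC981 was left out, with an adjusted p of at most 0.0864. Serpinb9, an inhibitor of granzyme B, was not called (5.23 to 25.8 CPM in livers and 15.0 to 52.75 CPM in tumors).

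Serpine2, or protease nexin-1, which inhibits thrombin and plasminogen activators at the cell surface, fell. Its lowest, median and highest liver levels were 8.19, 21.6 and 37.8 CPM. The Ctnnb1-mutated tumors were at 0.360 and 0.219 CPM and the other tumors at 3.51, 2.54, 0.257 and 5.39 CPM. No tumor reached the lowest liver, and the log2 fold change was -3.41 ± 0.75 (adjusted p = 0.0127). The unprocessed pseudogene Serpina4-ps1, which lies between Serpina12 and Serpina5, was at 31.3 to 181.5 CPM in the livers. In the tumors it was at 0.180 and 5.35 CPM (Ctnnb1-mutated) and at 2.81, 1.25, 0.154 and 22.3 CPM (others), again with no overlap (log2 fold change -4.20 ± 0.99, adjusted p = 0.0183).

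With the mouse as a block in the fit, 8 members were called in place of 5. Shares over all genes were taken for the main fits only. Counts of members called under the block and the other alternatives, here and below, therefore have no background beside them. Among those added were Serpinb9 (log2 fold change 0.86 ± 0.16, adjusted p = 0.0132) and Serpina11 (-0.90 ± 0.20, adjusted p = 0.0231).

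In all, 3 of 31 members tested were called higher (9.68%) and 2 lower (6.45%), beside 6.84% of all 13839 genes called higher and 3.84% called lower. These shares are near the background. The median log2 fold change of the 31 was -0.08, beside 0.0188 over all genes. None of the 8 members of highest level was among these calls, although Serpina3k was called lower by DESeq2 (log2 fold change -1.86, adjusted p = 0.0223) and by edgeR without both libraries of the mouse of L984 (-2.46, adjusted p = 0.0324).

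**Figure D2:**
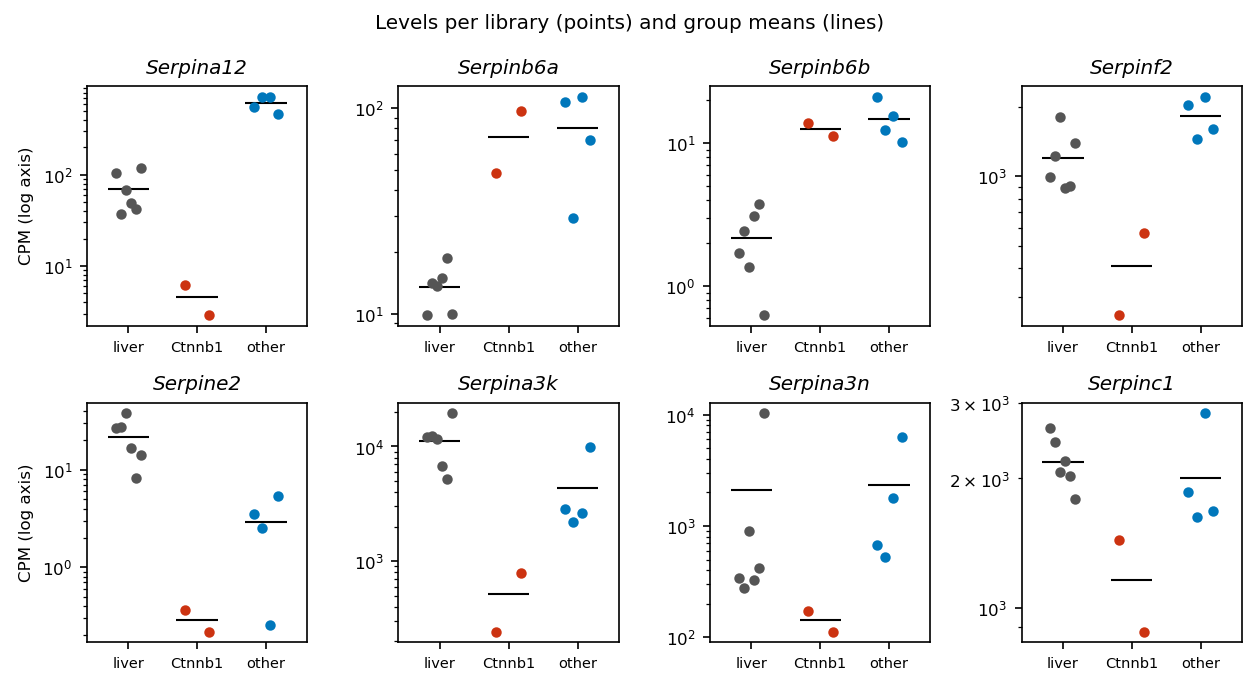
Points are single libraries and lines the group means of 8 serpins, in CPM on log axes, for 6 livers, 2 Ctnnb1-mutated tumors and 4 other tumors. Serpinb6a and Serpinb6b are higher in every tumor than in every liver, and Serpina12 lies below all livers in the Ctnnb1-mutated tumors and above them in the others.

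By genotype, the 4 p21+/Tert tumors against 4 p21+/Tert livers gave 3 of 37 members called higher (8.11%, beside 4.25% of 15170 genes) and 3 lower (8.11%, beside 2.21%). Serpinb6a (log2 fold change 2.42 ± 0.41, adjusted p = 0.00819) and Serpinb6b (2.75 ± 0.50, adjusted p = 0.0115) were among those that rose. Serpine2 (-4.03 ± 0.95, adjusted p = 0.0308), Serpina4-ps1 (-5.16 ± 1.21, adjusted p = 0.0305) and Serpinf1, the antiangiogenic pigment epithelium-derived factor (-1.57 ± 0.35, adjusted p = 0.0246), fell. With the mouse as a block, Serpina4-ps1 had an adjusted p of 0.0571, and Serpinb8 (0.0221) and Serpina3k (0.0483) were called. Leaving out L961 alone left 1 member called and L663 or L941 alone left 2. The calls of Serpina4-ps1, Serpine2 and Serpinf1 ended in all 3 of these fits, and that of Serpinb6b without L961. The calls of Serpina4-ps1 and Serpinf1 ended without T-HCC941, that of Serpinf1 also without T-HCC663, and those of Serpina4-ps1 and Serpine2 without T-HCA992.

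In the 2 p21+/TertCi tumors against 2 livers, 0 of 37 members were called, beside 0.00659% of all genes (1 gene). At an unadjusted p below 0.05 there were 5 of 37, beside 1626 of 15170 genes, and DESeq2 called 2, Serpinb6a and Serpinb6b. The edgeR log2 fold changes were 2.67 ± 0.58 for Serpinb6a and 2.53 ± 0.70 for Serpinb6b. The test of the difference between the genotypes called 0 members, beside 0% of all genes. The 2 members below an unadjusted p of 0.05 were Serpina1d and Serpinf1, beside 566 of 15170 genes, and DESeq2 called 0.

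The livers of the genotypes were also compared. edgeR called 0 of 37 members, beside 0% of all genes, and DESeq2 called 0. An unadjusted p below 0.05 was found for 6 (Serpina3f, Serpina3g, Serpina3m, Serpina3n and Serpini1 among them), all lower in p21+/Tert, beside 740 of 15170 genes in either direction. Of the 2 p21+/TertCi livers, L981 held the highest Serpina3f and Serpina3g, and L984 the highest Serpina3m and Serpina3n. Serpina3n was at 276.6 to 910.2 CPM in the p21+/Tert livers and at 423.8 and 10250 CPM in the p21+/TertCi livers.

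Tumors were then compared by class. In the 2 Ctnnb1-mutated tumors against 6 livers, 11 of 37 members were called lower (29.7%), beside 3.07% of 15170 genes, and 3 higher (8.11%), beside 5.15%. The median log2 fold change of the 37 was -1.50, beside -0.0105 over all genes. The members called lower were all 5 Serpina1 copies, Serpina3k, Serpina3h, Serpina12, Serpinf1, Serpinf2 and Serpine2, and those called higher were Serpinb6a, Serpinb6b and Serpinb8. The Serpina1 copies share windows, so they are not separate evidence. With the Serpina1 and the Serpina3 copies each summed, 9 features were called in place of 14. With 1 of the 2 tumors left out, 4 members were called without T-HCC662 and 7 without T-HCC663.

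Serpina1a, which like its copies encodes an α1-antitrypsin, the main plasma inhibitor of neutrophil elastase in the human, was at 1883, 3129 and 3832 CPM (lowest, median and highest liver). It was at 1080 and 1129 CPM in the Ctnnb1-mutated tumors and at 4467, 2915, 5708 and 4025 CPM in the others. The Ctnnb1-mutated tumors were below every liver (log2 fold change -1.50 ± 0.38, adjusted p = 0.032) and the other tumors overlapped the livers. Serpina1b was at 4092, 5446 and 7246 CPM in the livers, at 2133 and 1598 CPM in the Ctnnb1-mutated tumors and at 9846, 7950, 15140 and 9779 CPM in the others. It was below all livers in the former (-1.62 ± 0.41, adjusted p = 0.0338) and above all livers in the latter (0.88 ± 0.29, adjusted p = 0.0472). The rise in the other tumors was not stable, since leaving out any of the 10 libraries, TCi-HCC981 and TCi-HCA984 among them, ended the call (adjusted p from 0.0568 to 0.184), and the mouse block gave 0.0671.

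Serpina1c and Serpina1d fell further. Serpina1c was at 3614, 4548 and 6280 CPM in the livers and at 432.4 and 673.8 CPM in the Ctnnb1-mutated tumors (log2 fold change -3.08 ± 0.47, adjusted p = 0.00293). The other tumors were at 2497, 1797, 2993 and 3973 CPM, partly below the livers. They were not called by edgeR and were called lower by DESeq2. Serpina1d was at 2254, 3166 and 4141 CPM in the livers, 413.9 and 444 CPM in the Ctnnb1-mutated tumors (-2.88 ± 0.45, adjusted p = 0.00321) and 1535, 1915, 3299 and 2269 CPM in the others. The calls of Serpina1c and Serpina1d against the livers held with each library left out.

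Serpina1e was the most variable copy. livers L961, L663 and L941 had 12670, 14130 and 8538 CPM, and livers L992, L981 and L984 had 873.6, 962.6 and 787.9 CPM, with no liver between. The titles of the first 3 begin with p_, like those of T-HCC662, T-HCC663 and T-HCC941, and those of the other livers do not; what this marks is not given in the sources used here and cannot be told apart from these levels. The Ctnnb1-mutated tumors had 23.25 and 72.35 CPM and the other tumors 4257, 1932, 5626 and 431.7 CPM. The Ctnnb1-mutated tumors came from mice whose livers were high, and the log2 fold change was -7.05 ± 1.74 (adjusted p = 0.0299). With either of these tumors left out the adjusted p rose above the threshold, up to 0.181. T-HCA992 and TCi-HCC981 held 2.21 and 5.85 times the Serpina1e level of their own liver, and T-HCC941 and TCi-HCA984 held 0.499 and 0.548 times.

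The sum of the 5 copies was 14366 to 34394 CPM in the livers, 4083 and 3917 CPM in the Ctnnb1-mutated tumors, and 22602, 16509, 32766 and 20478 CPM in the others. Fitted as 1 feature (with the low copy Serpina1f added), it fell in the Ctnnb1-mutated tumors by 2.52 ± 0.59 on the log2 scale against the livers (adjusted p = 0.023) and by 2.50 ± 0.60 against the other tumors (adjusted p = 0.0226). It was at -0.02 ± 0.39 in the other tumors against livers (adjusted p = 0.975). The makeup of the sum also moved. Serpina1b gave 20.1% to 37.3% of the family's counts in the livers, 40.8% and 52.2% in the Ctnnb1-mutated tumors and 43.6% to 48.2% in the others, so every tumor lay above every liver. Serpina1c gave 15.2% to 28.4% in the livers and 9.13% to 19.4% in the tumors. These shares are a description, and reads in the windows the copies share may be split among them.

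**Figure D3:**
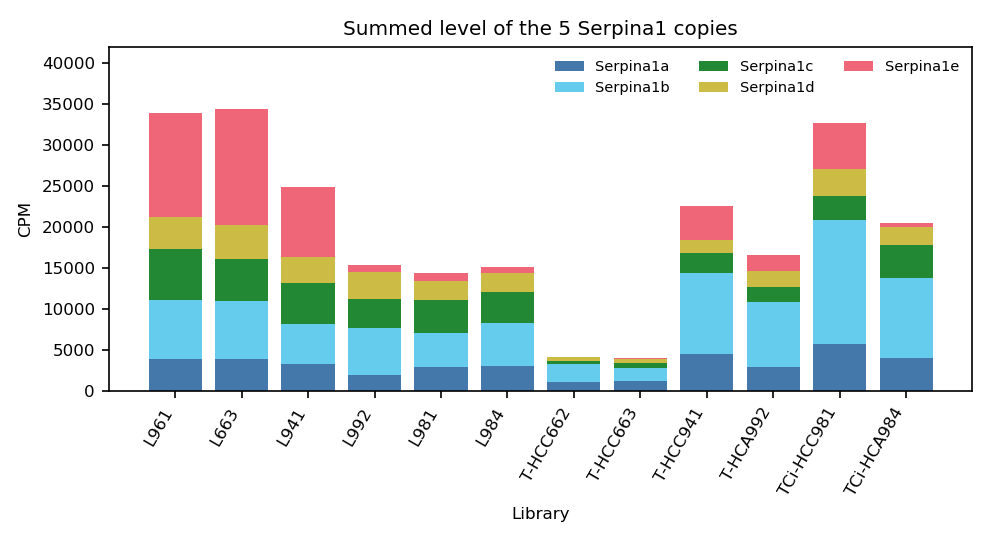
Stacked bars give the level (CPM) of the 5 Serpina1 copies in each of the 12 libraries. The sums in T-HCC662 and T-HCC663 (4083 and 3917 CPM) are the lowest, and Serpina1e makes up much of the bar in livers L961, L663 and L941 and little of it in livers L992, L981 and L984.

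Other members secreted by hepatocytes fell in the same tumors. Serpina3k, which binds tissue kallikrein, was at 5165, 11840 and 19420 CPM (lowest, median and highest liver) and at 243.6 and 786.2 CPM in the Ctnnb1-mutated tumors (log2 fold change -4.45 ± 0.87, adjusted p = 0.0109). The other tumors had 2835, 2197, 2615 and 9888 CPM, of which 3 were below every liver. Serpinf2, or α2-antiplasmin, the main inhibitor of plasmin, was at 892.8 to 1798 CPM in the livers and at 251.4 and 566.2 CPM in the Ctnnb1-mutated tumors (-1.56 ± 0.41, adjusted p = 0.0384). In the other tumors Serpinf2 was at 2040, 1445, 2202 and 1593 CPM. Serpinf1 was at 252.9 to 647.6 CPM in the livers, 112.6 and 119.3 CPM in the Ctnnb1-mutated tumors (-2.01 ± 0.43, adjusted p = 0.0167) and 166.4, 310.5, 449.6 and 338.8 CPM in the others. The transcribed pseudogene Serpina3h had no count in either Ctnnb1-mutated tumor, which puts it at least 14-fold lower than its pooled liver level of 0.935 CPM when 3 counts over both tumors are taken as the floor.

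With the mouse as a block in this comparison, 5 calls missed the threshold: Serpina1b (adjusted p = 0.0664), Serpina3h (0.0705), Serpinb6b (0.0605), Serpinb8 (0.0725) and Serpinf2 (0.0851). Serpina11, not called in the main fit, was called under the block (adjusted p = 0.0318) and by DESeq2. The call of Serpina3k ended without T-HCC662, those of Serpine2, Serpinf1 and Serpina3h without either Ctnnb1-mutated tumor, and that of Serpinf2 without T-HCC662 or L961, L663 or L941. Those of Serpina1a and Serpina1b ended without either of these tumors or without L961 or L663, and also without L941 (Serpina1a) or L992 (Serpina1b). Serpinb8 lost its call without either tumor or L961, L941 or L992, and Serpinb6b without T-HCC662. Without both libraries of the mouse of L984, Serpina3m (-1.38 ± 0.35, adjusted p = 0.0412) and Serpina4-ps1 (adjusted p = 0.0474) were called as well, and Serpinf2 was not.

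The summed level of the 9 hepatocyte markers was 42429 to 63390 CPM in the livers, 43879 and 25259 CPM in T-HCC662 and T-HCC663, and 85191 to 104492 CPM in the other tumors. T-HCC662 lay within the range of the livers, T-HCC663 below it and the other tumors above it. Of the 9, 1 was called lower in the Ctnnb1-mutated tumors (Cps1, log2 fold change -4.06 ± 0.56, adjusted p = 0.00164), and in the other tumors Alb was called higher and Asgr1 and Cyp2e1 lower. Over all 15170 genes, 3.07% were called lower and 5.15% higher in the Ctnnb1-mutated tumors. In the other tumors these shares were 11.1% and 11.6%. The 12 markers of stellate cells and fibroblasts, cells that express Serpinf1 and Serpine2, summed to 64.7 to 302.8 CPM in the livers, 37.8 and 96.85 CPM in the Ctnnb1-mutated tumors and 191.9 to 464.5 CPM in the others. In the Ctnnb1-mutated tumors 4 of the 12 were called lower (Dcn, Pdgfra, Des and Lrat), beside 3.07% of all genes. In the other tumors 3 were called higher (Col1a1, Col1a2 and Acta2), beside 11.6%. The 9 endothelial markers summed to 123.8 to 270 CPM in the livers, 108.8 and 170.2 CPM in the Ctnnb1-mutated tumors and 192.1 to 392.3 CPM in the others. Of these 9, 1 was called higher in the Ctnnb1-mutated tumors (Emcn) and 3 in the others (Pecam1, Cdh5 and Emcn), with 0 lower in either. Their median log2 fold change was -0.49 and 0.87. The 6 bile duct markers summed to 51.1 to 134.4 CPM in the livers, 17.85 and 35.8 CPM in the Ctnnb1-mutated tumors and 60.8 to 1064 CPM in the others. Of the 5 tested, only Sox9 was called, lower in the Ctnnb1-mutated tumors and higher in the others. The median log2 fold change of the 5 was -1.76 and -0.86, so most did not rise with the sum in the other tumors. Krt19, Krt7 and Cftr had no count in TCi-HCC981. Of the 6 neutrophil markers, cells whose elastase Serpina1 inhibits, and the 10 markers of T, NK and B cells, edgeR and DESeq2 called 0 in either class, and 0 had an unadjusted p below 0.05. The part of these cell types in the serpin differences was not tested.

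Serpina12, or vaspin, an inhibitor of kallikrein 7 known as an insulin-sensitizing adipokine, moved in opposite directions in the classes. It was at 37.2, 58.5 and 118.9 CPM (lowest, median and highest liver). T-HCC662 and T-HCC663 had 6.13 and 2.89 CPM, and the other tumors had 553.1, 716.6, 715.5 and 467.2 CPM. The 3 groups did not overlap. Serpina12 fell in the Ctnnb1-mutated tumors (log2 fold change -3.96 ± 0.60, adjusted p = 0.00282) and rose in the other tumors (3.13 ± 0.37, adjusted p = 0.000304). The classes differed by -7.08 ± 0.72 on the log2 scale (adjusted p = 0.000274), the smallest adjusted p of any member there. All 3 calls held when any 1 library was left out, under the block over 6 pairs, and without both libraries of the mouse of L984. The block over the 5 pairs that the labels name, with 1 Ctnnb1-mutated tumor left, ended the calls of the Ctnnb1-mutated tumors against livers (adjusted p = 0.133) and between the classes (0.0585) and kept that of the other tumors (0.00587). Among the p21+/Tert tumors alone, 2 against 2, the difference was -7.12 ± 0.59 (adjusted p = 0.00802). T-HCC662 and T-HCC663 held 0.0585 and 0.0777 times the liver level of their own mouse, and the other 4 tumors 3.93 to 16.9 times.

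**Figure D4:**
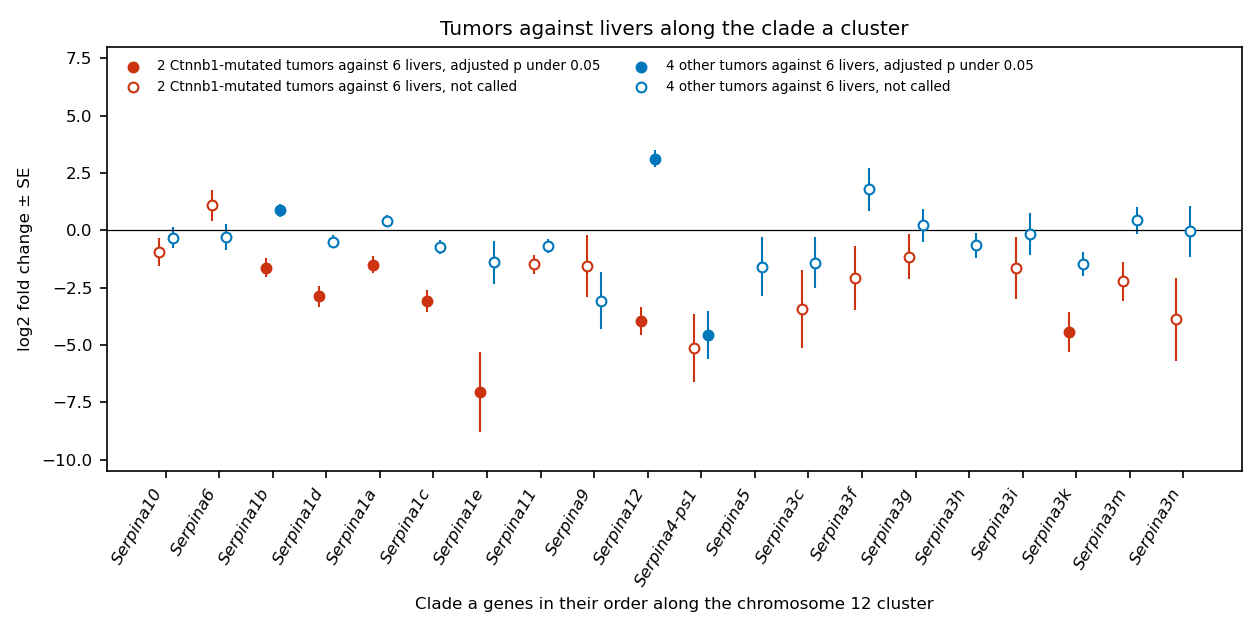
Points give the log2 fold change against the 6 livers, with its SE, of the tested clade a genes in their order along the chromosome 12 cluster, for 2 Ctnnb1-mutated tumors (red) and 4 other tumors (blue), filled where the adjusted p is under 0.05. Serpina12 is the filled blue point near 3 beside Serpina4-ps1 near -5, and members with no count in both Ctnnb1-mutated tumors have no red point.

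In the 4 other tumors against livers, 5 of 37 members were called higher (13.5%, beside 11.6% of all genes) and 2 lower (5.41%, beside 11.1%). Those called higher included Serpina12, Serpina1b, Serpinb6a (log2 fold change 2.44 ± 0.28, adjusted p = 0.000254) and Serpinb6b (2.71 ± 0.39, adjusted p = 0.000908). Serpine2 (-2.99 ± 0.63, adjusted p = 0.00643) and Serpina4-ps1 (-4.55 ± 1.06, adjusted p = 0.0108) were called lower. Serpinb6a, Serpinb6b and Serpine2 were thus called in the same direction in both classes, with the livers shared between the comparisons. Without both libraries of the mouse of L984, Serpina1c (-1.12, adjusted p = 0.0412), Serpina3k (-1.96, adjusted p = 0.0298) and Serpina3m (0.97, adjusted p = 0.0426) were called as well, and Serpina1b was not. With the mouse as a block, Serpinb8 (adjusted p = 0.0139) and Serpinb9 (0.0166) were also called higher. DESeq2 called further members, among them Serpinb8 and Serpind1 (higher) and Serpina1c and Serpina3k (lower).

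Set against each other, the Ctnnb1-mutated tumors had 11 of 37 members called lower than the other tumors (29.7%, beside 5.64% of all genes) and 0 called higher (beside 6.95%). No member was higher at an unadjusted p below 0.05 in edgeR, and DESeq2 called 0 higher. The median log2 difference of the 37 was -1.37, beside 0.00404 over all genes. With the Serpina1 and the Serpina3 copies each summed, 6 features were called in place of 11. Next to Serpina12, the calls were Serpina1a (-1.93 ± 0.40, adjusted p = 0.0125), Serpina1b (-2.50 ± 0.45, adjusted p = 0.00676), Serpina1c (-2.35 ± 0.46, adjusted p = 0.0103), Serpina1d (-2.39 ± 0.45, adjusted p = 0.00798) and Serpina1e (-5.66 ± 1.63, adjusted p = 0.0432). Serpina3k (-2.98 ± 0.81, adjusted p = 0.0348), Serpinf2 (-2.13 ± 0.44, adjusted p = 0.012), Serpinf1 (-1.45 ± 0.43, adjusted p = 0.0476) and Serpind1 (-1.34 ± 0.33, adjusted p = 0.0255) followed, as did Serpina3h, at least 8.62-fold lower on the same floor.

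Serpind1, or heparin cofactor II, a thrombin inhibitor, was at 349.4 to 639.4 CPM in the livers, 340.4 and 213.5 CPM in the Ctnnb1-mutated tumors and 814.6, 708.1, 702.6 and 594.7 CPM in the others. In edgeR it was called in neither class against the livers, only between the classes. DESeq2 also called it higher in the other tumors against the livers. With the block, the difference between the classes was called for 5 members in place of 11. Serpina12, Serpina1a (adjusted p = 0.0496), Serpina1b (0.0497) and Serpina1e (0.0258) stayed, and Serpine2 (0.0404) was added. Serpina1c (0.0592), Serpina1d (0.0542), Serpina3h (0.165), Serpina3k (0.0689), Serpind1 (0.0699), Serpinf1 (0.119) and Serpinf2 (0.082) missed the threshold. Without T-HCC662, 2 members were called, and without T-HCC663, 4. Each call other than that of Serpina12 ended without at least 1 of these tumors. The calls of Serpina1e, Serpina3k, Serpinf1 and Serpind1 ended also without T-HCA992 (Serpina1e, Serpinf1, Serpind1), TCi-HCC981 or TCi-HCA984 (Serpina1e, Serpina3k, Serpinf1) or T-HCC941 (Serpina1e, Serpina3k). Without both libraries of the mouse of L984, Serpina3m (-2.35, adjusted p = 0.00864) and Serpina3n (-2.50, adjusted p = 0.0413) were called, and Serpina3k and Serpinf1 were not.

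Among the p21+/Tert tumors alone the adjusted p was below 0.05 for 4 members, Serpina12, Serpina1e (-5.996 ± 0.87, adjusted p = 0.0299), Serpina3m (-2.20 ± 0.37, adjusted p = 0.0431) and Serpina3f (-3.60 ± 0.64, adjusted p = 0.0474). The share over all genes was not taken for this fit. In the 2 tumors with an Egfr or Hras mutation against the 2 with neither, edgeR called 0 of 37 members, beside 0% of all genes, and DESeq2 called 0. At an unadjusted p below 0.05 there were 2, Serpinb6a and Serpina3g, both higher in the mutated tumors, beside 1292 of 15170 genes in either direction.

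Several plasma serpins of known role were called in no comparison by edgeR. Serpinc1, or antithrombin, which inhibits thrombin and factor Xa, was at 1793, 2132 and 2617 CPM (lowest, median and highest liver). It was at 1437 and 880 CPM in the Ctnnb1-mutated tumors, both below every liver, and at 1861, 1629, 2835 and 1677 CPM in the others (log2 fold change of the Ctnnb1-mutated tumors against livers -0.92 ± 0.33, adjusted p = 0.11). Serping1, the inhibitor of C1s and plasma kallikrein, was at 868.3 to 1678 CPM in the livers, 623.4 and 436.8 CPM in the Ctnnb1-mutated tumors and 766.6 to 1382 CPM in the others (-1.30 ± 0.38, adjusted p = 0.0594). DESeq2 called Serpinc1 and Serping1 lower in the Ctnnb1-mutated tumors against the livers (adjusted p = 0.00484 and 0.00229) and against the other tumors (0.0262 and 0.0224), and Serping1 lower in the p21+/Tert tumors against livers (0.0384). Serpina10, the protein Z-dependent protease inhibitor, was at 194.4 to 862.4 CPM in the livers and 167 to 468.3 CPM in the tumors.

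The hormone carriers were called by neither tool. Serpina6, corticosteroid-binding globulin, was at 41.1 to 428.7 CPM in the livers and 66.96 to 651.1 CPM in the tumors, highest in T-HCC662. Serpina7, thyroxine-binding globulin, was at 34.3 to 323.4 CPM in the livers and 72.8 to 372.8 CPM in the tumors. Serpinh1, or HSP47, the collagen chaperone of the endoplasmic reticulum, was at 3.87 to 24.0 CPM in the livers, 13.3 and 10.8 CPM in the Ctnnb1-mutated tumors and 15.9 to 45.9 CPM in the others. Of 10 collagens that it folds, 4 were called higher in the other tumors (Col1a1, Col1a2, Col4a1 and Col4a2), beside 11.6% of all genes, and 1, Col5a1, was called lower in the Ctnnb1-mutated tumors, beside 3.07%.

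The Serpina3 genes varied widely from mouse to mouse. Serpina3n, an acute phase inhibitor of cathepsin G and granzyme B, was at 276.6 to 910.2 CPM in 5 livers and 10250 CPM in L984. Among the tumors it was at 172 and 112.9 CPM (Ctnnb1-mutated), 672.3, 522.1 and 1783 CPM, and 6326 CPM in TCi-HCA984. Both libraries of this mouse thus stood above all others. Serpina3m followed the same order at the top, with 1293 CPM in L984 and 1030 CPM in TCi-HCA984, beside 132 to 322.9 CPM in the other livers and 85.5 to 477.2 CPM in the other 5 tumors. Serpina3c was at 14.15 and 8.01 CPM in these libraries and at most 3.87 CPM elsewhere.

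The 18 acute phase genes other than serpins summed to 130401 CPM in L984, 102932 in L941 and 16389 to 32303 in the other 4 livers. Among them Saa1, a serum amyloid A gene, was at 19180 CPM in L941 and 11410 CPM in L984. Serpina3n in L941 was at 910.2 CPM, the highest liver level after that of L984. The part of the acute phase response in these levels was not tested. The tumor sum was highest in TCi-HCA984, at 76078 CPM. Serpina3g and Serpina3f are intracellular serpins of hematopoietic and interferon-stimulated cells. Serpina3g was highest in L981 and TCi-HCC981, at 89.9 and 114 CPM. Serpina3f was highest in TCi-HCC981, at 61.4 CPM, followed by T-HCA992 and L981, both at 31.5 CPM. In the other livers Serpina3g was at 5.58 to 14.1 CPM. The 9 macrophage markers summed to 1235 CPM in L981 and 140.9 to 327.5 CPM in the other livers, and to 875.8 CPM in TCi-HCC981, 1019 CPM in T-HCC663, 211.4 CPM in T-HCA992 and 148.6 to 340.8 CPM in the other tumors. The part of these cells in the Serpina3g and Serpina3f levels was not tested.

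The proteases and receptors that serpins act on were tested as a list of 24 proteases and 5 cofactors and receptors. In tumors against livers, 3 of 22 proteases tested were called higher, beside 6.84% of all genes, and 1 lower, beside 3.84%. These were Plau, the urokinase plasminogen activator (log2 fold change 1.69 ± 0.50, adjusted p = 0.0491), the membrane proteases St14 (3.33 ± 0.77, adjusted p = 0.0164) and Prss8 (3.15 ± 0.63, adjusted p = 0.00784), and, lower, Masp2 of the lectin pathway (-0.92 ± 0.18, adjusted p = 0.00614). Plaur, the urokinase receptor, was the 1 of 5 cofactors and receptors called (1.97 ± 0.40, adjusted p = 0.00886). In the Ctnnb1-mutated tumors, where 5.15% of all genes were called higher and 3.07% lower, 2 of 23 proteases were called higher (Prss8 and Plat, the tissue plasminogen activator, at 5.14 ± 1.09, adjusted p = 0.0162) and 3 lower (Plg, Masp1 and Masp2). Proz, the cofactor of Serpina10, also fell there (-1.31 ± 0.21, adjusted p = 0.00345). In the other tumors, where 11.6% of all genes were called higher and 11.1% lower, 4 of 23 proteases were called higher (Plau, Hgfac, St14 and Prss8) and 2 lower (Klkb1 and Masp2). Of the 5 cofactors and receptors, Plaur (2.23 ± 0.38, adjusted p = 0.00222) and Thbd, or thrombomodulin (1.29 ± 0.42, adjusted p = 0.0462), were called higher there and Lrp1, a receptor that clears serpin complexes, lower (-0.85 ± 0.25, adjusted p = 0.0295).

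Of 15 liver transcription factors, edgeR called 0 in the Ctnnb1-mutated tumors against livers, beside 3.07% of all genes called lower and 5.15% higher. An unadjusted p below 0.05 was found for 5, beside 3590 of 15170 genes, and DESeq2 called 3 (Cebpa, Onecut1 and Stat3). In edgeR, Cebpa and Nr1h4 were called lower in the other tumors, beside 11.1% of all genes. Against the other tumors, Nr5a2 and Stat3 were called lower in the Ctnnb1-mutated tumors, beside 5.64% of all genes. Of the 18 acute phase genes, edgeR called 0 in the Ctnnb1-mutated tumors against livers, and 5 (Saa4, Orm1, Hpx, Itih3 and Fgg) had an unadjusted p below 0.05 and were called by DESeq2. Fgg and Cp were called lower and Saa3 higher there than in the other tumors, beside 5.64% of all genes called lower and 6.95% higher. The medians of the log2 fold change against the livers were -0.37 for the transcription factors and -1.59 for the acute phase genes, beside -1.50 for the serpins tested.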

How the data were processed

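The authors sequenced poly(A) RNA, with no strand marking given, of 6 livers and 6 tumors, aligned reads with Subread to mm10 with mCherry added and deposited raw counts per gene from featureCounts 1.6.4. SAMtools is also named in the submitters' processing notes, and the handling of reads that map to several places is not given in the sources used here. The counts were used as deposited for 24421 symbols in 12 libraries, with 0 columns of other samples. The study's own fits held the sequencing run, which is not given per sample in the sources used here, so run and group cannot be told apart.

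Genes passing filterByExpr were tested with edgeR 4.0.16 (limma 3.58.1, R 4.3.3) by quasi-likelihood F tests with TMM scaling, Benjamini-Hochberg adjustment over all genes tested and a threshold of 0.05. The standard error is the absolute log2 fold change divided by the square root of F. Tumors against livers was 1 fit with 2 groups. The genotype comparisons were contrasts of 1 fit with 4 groups, and the class comparisons of 1 fit with livers, Ctnnb1-mutated tumors, Egfr- or Hras-mutated tumors and tumors with neither. Sequence windows of 150 bases were compared over GENCODE M21 transcripts with Python 3.11.15. The fits were also run on simulated counts with the gene means and library sizes of these data, a single fixed spread for all genes and planted changes. This setting lacks the differences between mice seen here, its outcome is not given, and no result rests on it. The libraries are separate mice within a group, and the precision of low levels is set by 14571716 to 26170661 counts per library. Floors of 3 counts cover counting error only.

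Liver and tumor with the same number came from the same mouse, as the labels name them for 5 pairs, and liver L961 was paired with T-HCC662 by elimination. Deviations from the group means over 13839 genes correlated within mice at 0.168 (L961), 0.04 (L663), 0.009 (L941), 0.429 (L992), 0.541 (L981) and 0.541 (L984). The mouse was the replicate block of an alternative fit, since the main design had none.

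The members and lists were chosen with earlier results of these data known. Values per library are given for 27 members: those called in any of 9 comparisons, the 8 of highest mean CPM, each Serpina1 and Serpina3 copy that passed the filter, and members fixed for their known roles. Of these members, 1 is not reported here, although it stays in the counts of members tested and called. Alternatives were DESeq2 1.42.0, its size-factor scaling in edgeR, no expression filter, summed copies, only the libraries compared, each library left out and CPM of raw totals. Leaving out both libraries of the mouse of L984 and taking the p21+/Tert tumors alone were added after seeing the data.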

Additional observations from a re-analysis of the deposited data

Results flagged for a closer look

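Among 54 sets of a gene and a tissue (6 livers or 6 tumors), 11 held a library far outside the range of the others. The rule flags about 1 in 20 sets by chance if values are normal and sets independent. CPM of mixed tumor classes and of related genes in the same mouse need not meet this, so no excess is read from the count. Of the 11 sets, 8 concerned the mouse of L984. In L984, Serpina3n was at 10250 CPM (276.6 to 910.2 in the other livers), Serpina3m at 1293 CPM (132 to 322.9) and Serpina3c at 14.15 CPM (0.805 to 3.87). In TCi-HCA984, Serpina3n was at 6326 CPM (112.9 to 1783 in the other tumors), Serpina3k at 9888 CPM (243.6 to 2835), Serpina7 at 372.8 CPM (72.8 to 153.2), Serpina4-ps1 at 22.3 CPM (0.154 to 5.35) and Serpina3c at 8.01 CPM (0 to 1.18). The other 3 concerned the mouse of L981, with Serpina3g at 89.9 CPM in its liver (5.58 to 14.1) and at 114 CPM in its tumor (6.49 to 29.9), and Serpina3f at 31.5 CPM in its liver (1.13 to 4.85).

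For 2 members the response against the livers went in opposite directions in the tumor classes and the difference was itself tested by edgeR's quasi-likelihood test. It was -7.08 on the log2 scale for Serpina12 (adjusted p = 0.000274) and -2.50 for Serpina1b (adjusted p = 0.00676), Ctnnb1-mutated against other tumors. The Serpina1b call between the classes ended without T-HCC663, with only the libraries compared, and among the p21+/Tert tumors alone. Its call in the other tumors against livers ended without any 1 of the 10 libraries and under both blocks. The opposite direction is therefore not stable for Serpina1b.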

How the results depend on the processing

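The 9 comparisons gave 43 calls of members. None changed sign under the alternatives run, and 15 held whichever library was left out. DESeq2 size factors in edgeR kept 43 of 43, DESeq2 42 of the 42 with a value, the fit with no expression filter 39, that without both libraries of the mouse of L984 39, and the mouse as a replicate block 29. With the block over the 5 pairs the labels name, 13 were kept. Apart from the calls given with the results, the block over 6 pairs ended none. Counts of members called moved by over 1.5 times as follows. In tumors against livers (5) DESeq2 called 9, the replicate block 8 and the block over 5 pairs 8. In p21+/Tert tumors against livers (6) DESeq2 called 14 and the block over 5 pairs 2, and in p21+/TertCi (0) DESeq2 called 2. In Ctnnb1-mutated tumors against livers (14) summing the copies left 9, and the block over 5 pairs, with 1 such pair left, 0. In the other tumors against livers (7) DESeq2 called 12. Between the classes (11) summed copies gave 6, only the libraries compared 4, the replicate block 5, the block over 5 pairs 0 and the p21+/Tert tumors alone 4. Summing leaves fewer features, and the other causes were not tested.

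With each library left out, the counts ranged from 4 to 7 (tumors against livers), 1 to 5 (p21+/Tert), 4 to 15 (Ctnnb1-mutated against livers), 5 to 9 (other tumors against livers) and 2 to 9 (between the classes), and were 0 in the other comparisons. In other tumors against livers, uncalled values changed sign. With a library left out, the log2 fold change of Serpina3g ranged from -0.44 (without TCi-HCC981) to 1.36 and that of Serpina3n from -1.38 to 2.17, with 0.24 without T-HCC941 and 0.42 without T-HCA992. Serpina3n was also above 0 without the mouse of L984 (0.82) and under the block over 6 or 5 pairs (0.40 each). Without L984, Serpina3n was at 2.17 (adjusted p = 0.0321). For the genotype by tissue difference, the libraries compared are all libraries, so no such alternative was run. CPM of raw totals moved 0 of 27 named levels by more than the spread. Members near the floor of 3 counts could not be compared at this depth.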

Other observations

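The levels of Serpina1e fell apart among the livers: 8538 to 14130 CPM in livers L961, L663 and L941 and 787.9 to 962.6 CPM in livers L992, L981 and L984. Serpina1a and Serpina1c were also higher in the first 3 livers, with smaller gaps: Serpina1a was at 3200 to 3832 CPM there and 1883 to 3058 CPM in the others, and Serpina1c at 5024 to 6280 and 3614 to 4073 CPM. The ranges of Serpina1b (4979 to 7246 and 4092 to 5712 CPM) and Serpina1d (3082 to 4141 and 2254 to 3250 CPM) overlapped. The titles of the libraries split the livers in the same way: those of the first 3 begin with p_, as do those of T-HCC662, T-HCC663 and T-HCC941, and those of the others begin with NT_ or L. The sources used here do not say what these letters mean, and what they mark cannot be told apart from the Serpina1e levels. Both high and low livers occur among the p21+/Tert mice. These values are given as they are, with no test.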
